A study of Mus musculus with 12 samples.

Results

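The TNF superfamily consists of ligands, most of them anchored in the cell membrane, and of the receptors that bind them. Its genes were followed here across 12 mouse lung libraries. The members are the protein-coding genes whose symbol begins with Tnfsf or Tnfrsf, together with Tnf, Lta, Ltb, Ltbr, Fas, Fasl, Cd27, Cd40, Cd40lg and Cd70. They number 42 of the 35599 genes in the table: 17 ligands, 24 receptors and the read-through gene Tnfsfm13, which joins Tnfsf12 and Tnfsf13. Levels are given as FPKM, fragments counted to a gene, scaled to its length and to the library's size.

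Lung RNA came from 3 groups of mice with 4 libraries each. The saline group was the control. The AE-PF group was given bleomycin, which injures lung epithelium and leads to scarring, together with LPS, an inflammatory component of bacterial walls, as a model of an acute exacerbation of pulmonary fibrosis, and was otherwise untreated. The ND-RHL group had the same bleomycin and LPS challenge and then received liposomes carrying both nintedanib, a tyrosine kinase inhibitor used in pulmonary fibrosis, and dexamethasone, a glucocorticoid, with hyaluronic acid and RGD peptides on their surface. AE-PF is thus compared with mice without the challenge, and ND-RHL with challenged mice without the liposomes. The effects of the 2 drugs and of the carrier cannot be told apart in these groups, and strain, sex, age, doses and times are not given in the labels used here. The labels do not say that the libraries of a group came from separate animals, so p-values measure the spread between these samples, which may in part be technical.

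The ligands of this family act mainly as trimers that gather receptor chains on the target cell. Receptors with a death domain, such as Fas and TNF receptor 1, can start apoptosis or necroptosis through FADD, RIPK1 and caspase-8. Receptors without one recruit TRAF adaptors and chiefly activate NF-kB and MAP kinases, which in lymphocytes serves survival and costimulation. In lung, TNF is released early after LPS, largely by macrophages, and several receptors of the family are made by epithelium, endothelium and fibroblasts.

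The start sites of the members that the results turn on are shown here first, because Tnfsf18, Tnf, Tnfrsf9 and Tnfrsf12a rose and Tnfsf10 fell in AE-PF. RefSeq promoter windows of GRCm38.p6, 250 bases before to 50 after the gene's start, were matched by symbol for 32 of the 42 members. Each is printed 5′ to 3′ on the gene's own strand, and capitals mark a match to a motif searched.
Tnfsf18, chr1:161494407-161494706, plus strand: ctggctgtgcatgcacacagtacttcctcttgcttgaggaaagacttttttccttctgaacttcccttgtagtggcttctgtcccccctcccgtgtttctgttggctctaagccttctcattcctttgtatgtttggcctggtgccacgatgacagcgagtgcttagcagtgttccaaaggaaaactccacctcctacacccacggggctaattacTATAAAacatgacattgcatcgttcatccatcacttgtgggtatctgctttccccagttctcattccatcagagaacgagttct
Tnf, chr17:35201958-35202257, minus strand: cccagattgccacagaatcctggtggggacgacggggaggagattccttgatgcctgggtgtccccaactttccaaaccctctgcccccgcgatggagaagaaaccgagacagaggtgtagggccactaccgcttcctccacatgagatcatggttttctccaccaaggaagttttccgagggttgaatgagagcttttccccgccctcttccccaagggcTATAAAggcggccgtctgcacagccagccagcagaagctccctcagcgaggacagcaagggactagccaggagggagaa
Tnfrsf9, chr4:150919905-150920204, plus strand: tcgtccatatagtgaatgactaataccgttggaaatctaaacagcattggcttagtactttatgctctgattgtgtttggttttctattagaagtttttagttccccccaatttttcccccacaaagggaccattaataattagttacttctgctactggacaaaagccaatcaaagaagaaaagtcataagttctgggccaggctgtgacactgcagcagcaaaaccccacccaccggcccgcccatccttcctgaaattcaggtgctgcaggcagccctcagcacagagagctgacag
Tnfrsf12a, chr17:23677400-23677699, minus strand: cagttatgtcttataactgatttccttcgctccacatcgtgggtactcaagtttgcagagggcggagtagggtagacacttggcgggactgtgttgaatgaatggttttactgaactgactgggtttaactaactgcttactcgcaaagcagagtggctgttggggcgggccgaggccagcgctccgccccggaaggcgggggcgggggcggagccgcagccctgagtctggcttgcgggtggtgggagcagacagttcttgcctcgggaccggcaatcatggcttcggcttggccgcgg
Tnfsf10, chr3:27316827-27317126, plus strand: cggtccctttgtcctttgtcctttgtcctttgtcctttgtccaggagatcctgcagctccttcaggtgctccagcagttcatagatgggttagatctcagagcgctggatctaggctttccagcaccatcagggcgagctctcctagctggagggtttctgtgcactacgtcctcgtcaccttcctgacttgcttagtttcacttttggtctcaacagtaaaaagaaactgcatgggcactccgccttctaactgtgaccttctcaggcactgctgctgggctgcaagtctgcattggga
The motifs were the TATA box (TATAAA), AP-1 (TGANTCA), the interferon element core (GAAA and GAAA, 2 bases apart), the glucocorticoid element (GNACA and TGTNC, 3 bases apart) and the NF-kB consensus, each on both strands. Tnfsf18 held TATAAA beginning 34 bases before its start, and Tnf held it 29 bases before. The windows of Tnfrsf9, Tnfrsf12a and Tnfsf10 held none of the 5 motifs, and that of Tnfrsf9 is at the more upstream of its 2 RefSeq starts, which lies inside the gene as GENCODE draws it, downstream of the start in that annotation. TATAAA was found in 6 of 32 members (18.8%) and in 13.6% of 32851 promoters, AP-1 in 5 members (15.6%) against 7.81%, and the interferon core in 3 (9.38%) against 3.44%. The NF-kB consensus was found in 2 members (6.25%) against 8.46%, and the glucocorticoid element in 0 against 0.475% of promoters. These are matches of letters in a short window and say nothing of binding.

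Libraries held 16152379 to 21667129 fragments, so that 3 fragments on a gene of 1 kb equal an FPKM of 0.138 to 0.186, and 14052 to 15020 genes reached an FPKM of 1. Lung identity was checked on alveolar type 2 cell markers such as Sftpc: all 7 were found, with a summed FPKM of 13400 to 16900 in saline, 1540 to 5110 in AE-PF and 9900 to 17700 in ND-RHL. AE-PF library 2 and ND-RHL library 4 stood apart, with stratified squamous epithelium markers summing to 1860 and 6190 FPKM against at most 13.8 elsewhere, and skeletal muscle markers to 693 and 1670 against at most 130. AE-PF libraries 1 and 2 also stood apart from 3 and 4 in lymphocyte markers. Their T cell sums were 26.9 and 15.6 against 55.5 and 51.2, and their B cell sums 28.4 and 15.7 against 61.7 and 50.3. Calls that changed with AE-PF library 2 plus ND-RHL library 4 left out, or with AE-PF libraries 1 plus 2 left out, are given with the gene. In whole tissue, fewer cells of a type and less RNA per cell cannot be told apart.

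In saline lung the highest levels were those of a receptor and a ligand. Tnfrsf1a, TNF receptor 1, had an FPKM of 62.4 ± 2.30 (SD, n = 4), and Tnfsf10, which encodes the ligand TRAIL, 39.9 ± 1.78. Ltbr, the lymphotoxin beta receptor, was close to Tnfsf10 at 38.0 ± 0.652, and the next ligand, Ltb, was at 9.01 ± 0.698. Tnf itself was at 0.849 ± 0.137, low in a lung without challenge. The 24 receptors together summed to 233 ± 4.29 FPKM in saline, 343 ± 14.5 in AE-PF and 245 ± 10.6 in ND-RHL, and the AE-PF sums lay above all others. The 17 ligands summed to 69.6 ± 2.27, 59.1 ± 19.6 and 89.8 ± 6.42, with AE-PF spread from 37.1 to 76.3. Most of that spread was in Tnfsf10 and Ltb, described below.

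**Figure D1:**
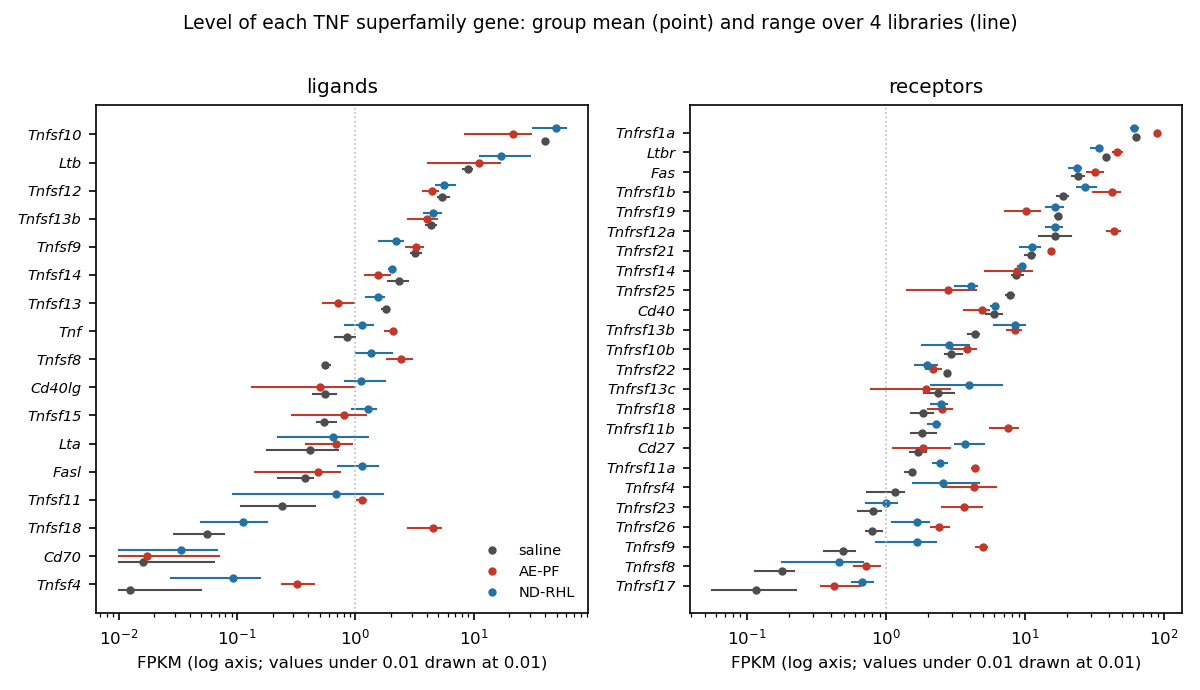
Level of each TNF superfamily ligand (left, 17 genes) and receptor (right, 24 genes) in FPKM on a log axis; points are group means and lines span the 4 libraries of a group. Receptors such as Tnfrsf1a and Ltbr lie far above 1 FPKM in all groups, and Tnfsf18 moves from 0.0562 in saline to 4.52 in AE-PF.

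AE-PF against saline asks what the bleomycin and LPS challenge changed. Of 34 members tested, 18 were higher in AE-PF (52.9%), where 26.4% of all 15164 genes tested were higher, and 7 were lower (20.6%), where 30.2% of all genes were. Receptors made up most of the rise: 14 of 22 tested were higher, 4 lower and 4 did not pass, whereas of 12 ligands 4 were higher, 3 lower and 5 did not pass. At least 2-fold higher were 9 members (26.5%), against 5.00% of all genes, and 2 were at least 2-fold lower (Tnfsf10 and Tnfrsf25, 5.88%), against 5.03%. The 2 groups did not overlap in 23 members (67.6%) and in 54.3% of all genes. The median log2 difference was 0.30 over the members and -0.03 over all genes. Tests were by limma on log2(FPKM + 1) over all genes, with Benjamini-Hochberg adjusted p under 0.05 as the threshold. All folds given are on that scale and understate low genes. Pooled fragments scaled to the library totals were 2.42 times saline for Tnf, 3.05 for Tnfrsf26, 4.53 for Tnfsf11 and 0.395 for Tnfsf13. None of these genes differed by 2-fold on the log2(FPKM + 1) scale. Of the 8 members not tested, none reached an FPKM of 1 in 4 libraries. Tnfsf18 reached it only in AE-PF and so had to differ, and it is counted among the 18 higher and the 9 at least 2-fold higher.

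ND-RHL against AE-PF asks what the liposomes changed in challenged lungs, and it shares the 4 AE-PF libraries with the comparison above. Of the 34 members, 15 were lower in ND-RHL (44.1%), where 17.4% of all genes were lower, and 4 were higher (11.8%), where 24.3% were. Receptors again took the larger part, with 11 of 22 lower and 2 higher, while 4 of 12 ligands were lower and 2 higher. At least 2-fold lower were 5 members (14.7%), against 2.26% of all genes: Tnfsf18, Tnfrsf11b, Tnfrsf12a, Tnfrsf9 and Tnfrsf23. Tnfsf18, which passed the filter only through AE-PF, had to be lower and is counted among the 15 and the 5. Only Tnfsf10 was at least 2-fold higher (2.94%), against 2.66% of all genes. The groups did not overlap in 18 members (52.9%) and in 36.8% of all genes. The median log2 difference was -0.36 over the members and 0.06 over all genes. Of the 18 members higher in AE-PF, 14 were lower in ND-RHL, an outcome that the shared AE-PF libraries favour in advance. The matching share over all genes was not computed. Scaling every library to the same FPKM total left the members at 18 higher and 5 lower in AE-PF against saline and at 4 higher and 15 lower in ND-RHL against AE-PF. Over all genes the share of calls that were higher went from 46.7% to 63.2% in the former and from 58.2% to 37.6% in the latter.

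**Figure D2:**
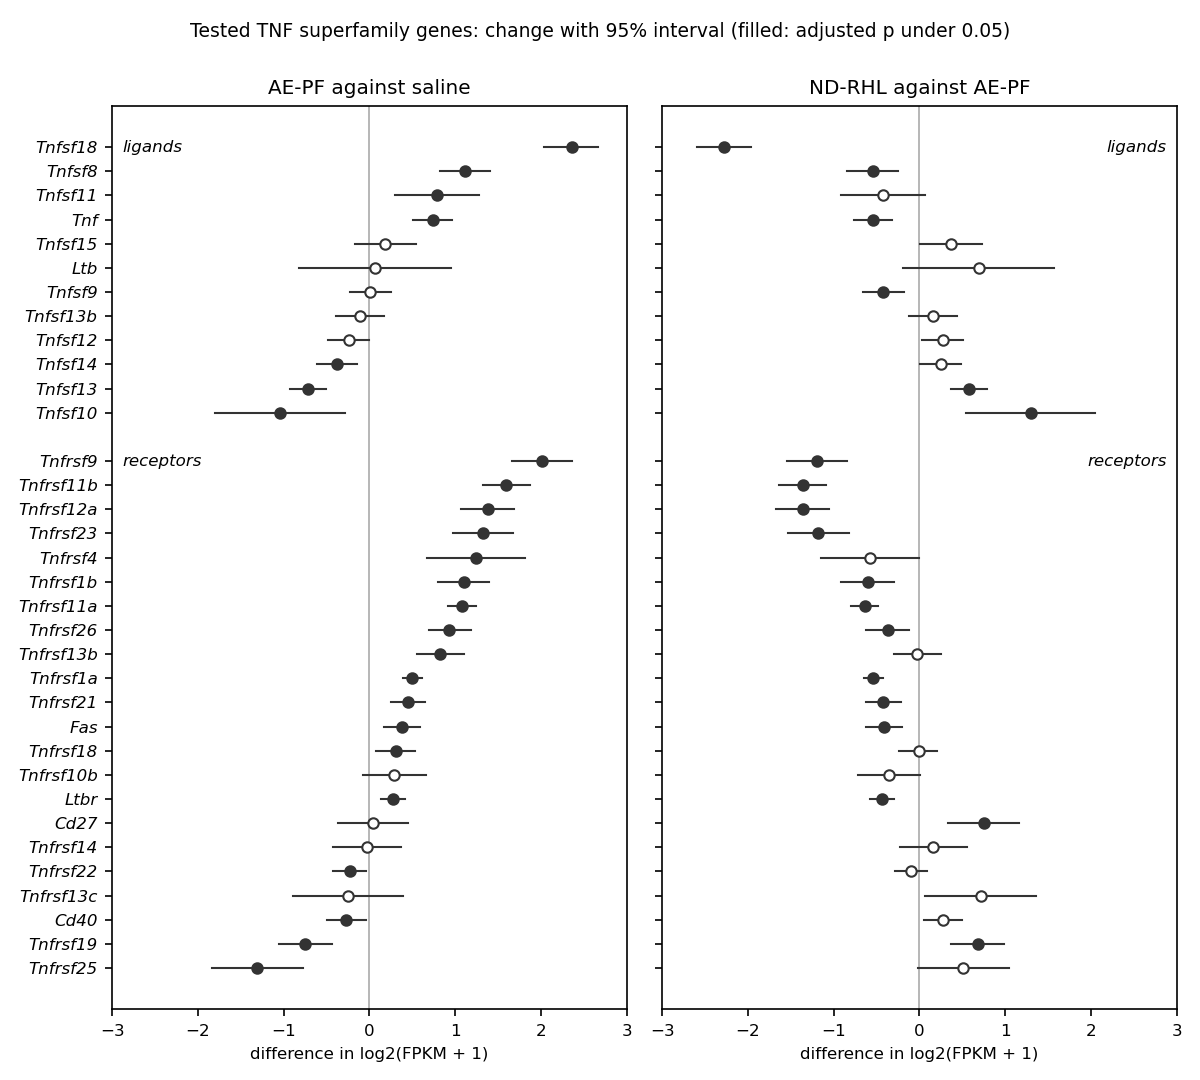
Difference in log2(FPKM + 1) with its 95% interval for the 34 members tested, AE-PF against saline on the left and ND-RHL against AE-PF on the right; filled points have an adjusted p under 0.05. Most receptors lie to the right of 0 on the left panel and to the left of 0 on the right panel, Tnfsf18 furthest in each.

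TNF and its receptors rose together in AE-PF. Tnf was at 0.986, 0.922, 0.817 and 0.672 FPKM in saline libraries 1 to 4, at 2.15, 1.79, 2.16 and 2.22 in AE-PF and at 1.31, 0.982, 0.818 and 1.40 in ND-RHL. Every AE-PF library lay above every other library. The rise was 1.67-fold (log2 0.74 ± 0.10 SE, limma adjusted p = 0.000115) and the fall with ND-RHL 1.46-fold (log2 -0.54 ± 0.10 SE, limma adjusted p = 0.00183). Pooled Tnf fragments, scaled to the library totals, were 2.42 times saline in AE-PF and 0.54 times AE-PF in ND-RHL. Tnfrsf1a, the widely expressed death-domain receptor of TNF, was at 63.1, 60.5, 65.3 and 60.5 in saline, 92.6, 90.4, 85.2 and 87.0 in AE-PF and 58.9, 64.4, 61.7 and 57.9 in ND-RHL. Its AE-PF libraries did not overlap the others, with a rise of 1.42-fold (limma adjusted p = 1.4e-05) and a fall of 1.46-fold (limma adjusted p = 3.75e-05). ND-RHL did not differ detectably from saline for either gene. The log2 difference was 0.20 for Tnf (95% interval -0.03 to 0.42) and -0.04 for Tnfrsf1a (-0.15 to 0.07).

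Tnfrsf1b, TNF receptor 2, which lacks a death domain and is strongest on immune and endothelial cells, kept part of its rise. It was at 18.3, 16.9, 20.4 and 19.1 FPKM in saline, 42.6, 30.8, 48.3 and 45.5 in AE-PF and 23.8, 32.3, 23.7 and 28.1 in ND-RHL. AE-PF library 2 lay below ND-RHL library 2, so these groups overlapped, and saline lay below both. It rose 2.15-fold (limma adjusted p = 5.75e-05), fell 1.52-fold with ND-RHL (limma adjusted p = 0.00516) and stayed 1.41-fold above saline (limma adjusted p = 0.0255), though not when saline library 1 or 2 or ND-RHL library 2 or 4 was left out (limma adjusted p from 0.0557 to 0.0736). All 11 monocyte and recruited macrophage markers also rose in AE-PF, and their summed FPKM was 387 to 498 in saline, 1780 to 2560 in AE-PF and 491 to 1050 in ND-RHL. Endothelial markers were lower in AE-PF than in saline in 6 of 8 and higher in 1. Neutrophil markers were lower in 5 of 7 tested and higher in 1. The part of these lists in the TNF receptor values was not tested.

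**Figure D3:**
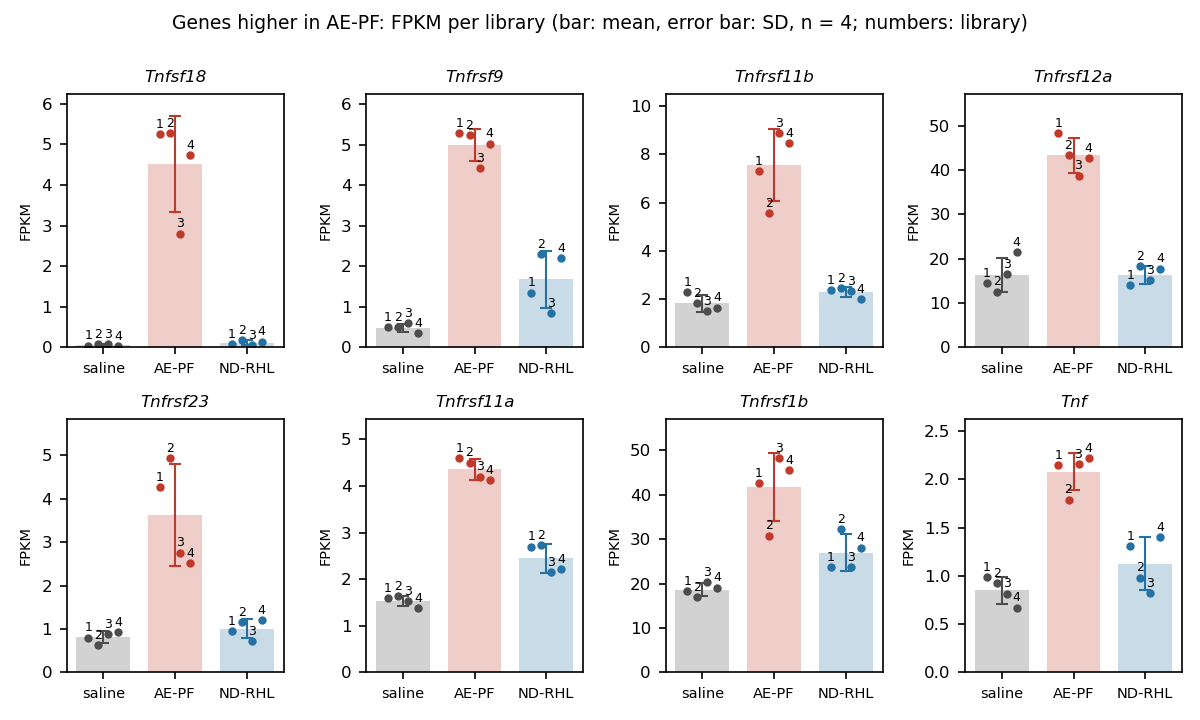
FPKM per library of 8 members higher in AE-PF, with bars for group means, error bars for SD (n = 4) and numbers for the library. AE-PF libraries lie above all saline libraries in each panel, and Tnfrsf11a, Tnfrsf1b and Tnfrsf9 remain above saline in ND-RHL.

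The death receptor axis held Fas, Tnfrsf21 and Tnfrsf10b, the decoy receptors Tnfrsf22 and Tnfrsf23, and the ligands Tnfsf10 and Fasl. Tnfrsf1a and Tnfrsf25 were counted in other axes. Of 6 genes tested, 3 rose in AE-PF (Fas, Tnfrsf21 and Tnfrsf23) and 2 fell (Tnfsf10 and Tnfrsf22). Over all genes tested, 26.4% rose and 30.2% fell. Fas, the receptor that triggers apoptosis when bound by Fas ligand, was at 21.8, 23.6, 26.4 and 24.9 FPKM in saline, 34.5, 36.1, 29.1 and 27.9 in AE-PF and 24.3, 24.5, 25.4 and 20.6 in ND-RHL. All AE-PF libraries were above the rest, libraries 1 and 2 the most. Fas rose 1.3-fold (limma adjusted p = 0.00543) and fell 1.33-fold with ND-RHL (limma adjusted p = 0.00595). Without AE-PF libraries 1 and 2 neither difference passed (log2 0.23, limma adjusted p = 0.0676, and log2 -0.26, limma adjusted p = 0.0677). Tnfrsf21, death receptor 6, rose 1.37-fold from 11.0 ± 0.765 to 15.4 ± 0.469 (limma adjusted p = 0.00135) and was at 11.3 ± 1.70 in ND-RHL. Tnfrsf10b, the TRAIL receptor that signals death, passed in no comparison with all libraries. It was at 2.79, 2.79, 2.64 and 3.53 in saline, 3.72, 2.94, 4.33 and 4.42 in AE-PF and 1.81, 2.35, 3.29 and 3.95 in ND-RHL, and the 3 groups overlapped. With ND-RHL library 4 and AE-PF library 2 left out it was higher in AE-PF than in saline (log2 0.39 against 0.29, limma adjusted p = 0.033) and lower in ND-RHL than AE-PF (log2 -0.58 against -0.36, limma adjusted p = 0.0113). Leaving out ND-RHL library 4 alone was enough for the latter (log2 -0.49, limma adjusted p = 0.0269).

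Tnfsf10, encoding the death ligand TRAIL, went the other way from most members. It was at 38.2, 42.3, 39.1 and 40.2 FPKM in saline, at 15.8, 8.38, 30.2 and 30.6 in AE-PF and at 46.2, 59.4, 59.6 and 31.9 in ND-RHL. Every AE-PF library lay below every other library, libraries 1 and 2 far below 3 and 4. The fall was 2.06-fold (log2 -1.04 ± 0.34 SE, limma adjusted p = 0.0224) and ND-RHL was 2.46-fold above AE-PF (log2 1.3 ± 0.34 SE, limma adjusted p = 0.0114). Without AE-PF libraries 1 and 2 the values were -0.38 (limma adjusted p = 0.163) and 0.64 (limma adjusted p = 0.0512). Leaving out AE-PF library 1 alone or saline library 2 alone also ended the first call (limma adjusted p = 0.0589 and 0.0501). Natural killer cell markers, which include Ncr1 and Gzma, were also lowest in AE-PF libraries 1 and 2, with AE-PF sums of 6.10, 2.85, 21.9 and 19.7 against 21.5 to 31.4 in saline and 45.5 to 92.5 in ND-RHL. Of the 7 tested, 3 fell in AE-PF and 7 were higher in ND-RHL than in AE-PF. Sums of alveolar type 2, endothelial and B cell markers were likewise lowest in AE-PF libraries 1 and 2. The part of these lists in Tnfsf10 was not tested.

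The decoy TRAIL receptors Tnfrsf22 and Tnfrsf23 and their neighbour Tnfrsf26 lie within 78.2 kb on chromosome 7 and did not move alike. Tnfrsf23 was at 0.804, 0.626, 0.889 and 0.926 FPKM in saline, 4.27, 4.94, 2.76 and 2.51 in AE-PF and 0.943, 1.16, 0.716 and 1.20 in ND-RHL. AE-PF stood clear of the other groups, with a rise of 2.49-fold (limma adjusted p = 5.04e-05) and a fall of 2.26-fold (limma adjusted p = 0.000298). Pooled Tnfrsf23 fragments, scaled to the library totals, were 4.48 times saline in AE-PF and 0.274 times AE-PF in ND-RHL. Tnfrsf26 was at 0.731, 0.755, 0.940 and 0.722 in saline, 2.85, 2.10, 2.44 and 2.28 in AE-PF and 1.11, 2.04, 1.81 and 1.70 in ND-RHL. It rose 1.91-fold (limma adjusted p = 4.68e-05), fell 1.29-fold with ND-RHL (limma adjusted p = 0.0224) and remained above all saline libraries (limma adjusted p = 0.00602). Without AE-PF library 1 its fall did not pass (limma adjusted p = 0.0706), nor without libraries 1 and 2 (limma adjusted p = 0.0881). Tnfrsf22 was instead lower, at 2.65, 2.7, 2.79 and 2.78 in saline, 2.08, 1.93, 2.23 and 2.5 in AE-PF and 1.61, 2.32, 2.21 and 1.74 in ND-RHL. Saline lay above both challenged groups, by 1.17-fold over AE-PF (limma adjusted p = 0.0392, lost when any library of these 2 groups but AE-PF library 4 was left out, limma adjusted p from 0.0596 to 0.0972, and without AE-PF libraries 1 and 2, 0.259) and 1.26-fold over ND-RHL (limma adjusted p = 0.0197). The antisense gene E230032D23Rik overlaps all 3 genes, and without a stated strand setting its reads cannot be told from theirs.

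All 3 genes of the RANK axis rose in AE-PF. RANK, encoded by Tnfrsf11a, drives osteoclast formation in bone when bound by its ligand Tnfsf11, and osteoprotegerin, encoded by Tnfrsf11b, is a secreted decoy that holds this ligand back. Tnfrsf11b was at 2.28, 1.84, 1.51 and 1.65 FPKM in saline, 7.32, 5.58, 8.89 and 8.47 in AE-PF and 2.38, 2.46, 2.34 and 2.00 in ND-RHL. The AE-PF libraries stood well above the rest, with a rise of 3.02-fold (log2 1.59 ± 0.13 SE, limma adjusted p = 3.77e-06) and a fall of 2.57-fold (limma adjusted p = 3.6e-05). Tnfrsf11a was at 1.60, 1.63, 1.53 and 1.38 in saline, 4.6, 4.50, 4.20 and 4.13 in AE-PF and 2.7, 2.73, 2.16 and 2.21 in ND-RHL. The 3 groups were ordered without overlap: a rise of 2.11-fold (limma adjusted p = 1.72e-06), a fall of 1.56-fold (limma adjusted p = 9.34e-05) and 1.36-fold over saline in ND-RHL (limma adjusted p = 0.00217). Tnfsf11 was at 0.454, 0.217, 0.177 and 0.109 in saline, 1.23, 1.09, 1.03 and 1.19 in AE-PF and 0.418, 0.526, 0.0922 and 1.72 in ND-RHL. AE-PF lay above saline (1.73-fold, limma adjusted p = 0.0103, and 4.53 times in pooled fragments scaled to the library totals). ND-RHL library 4, the one with squamous and muscle transcripts, held the highest value of all. ND-RHL against AE-PF did not pass (log2 -0.42, limma adjusted p = 0.149) but did without ND-RHL library 4 (log2 -0.68, limma adjusted p = 0.00289).

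Fn14, the receptor of TWEAK, is induced in injured epithelium and mesenchyme. Its gene Tnfrsf12a was among the most raised on the log2(FPKM + 1) scale. By pooled fragments scaled to the library totals, AE-PF was 2.7 times saline. Several members at lower FPKM were above this, such as Tnfrsf23 at 4.48 and Tnfsf8 at 4.28. Tnfrsf12a was at 14.5, 12.6, 16.6 and 21.5 FPKM in saline, 48.4, 43.4, 38.8 and 42.8 in AE-PF and 14.1, 18.3, 15.1 and 17.8 in ND-RHL. AE-PF stood apart and the other groups overlapped, with a rise of 2.60-fold (log2 1.38 ± 0.14 SE, limma adjusted p = 1.56e-05) and a fall of 2.57-fold (limma adjusted p = 6.07e-05). ND-RHL and saline had means of 16.3 each, and the log2 difference was 0.02 (95% interval -0.29 to 0.33). The ligand gene Tnfsf12 was at 4.97, 5.38, 6.19 and 5.05 in saline, 3.76, 4.27, 4.95 and 4.67 in AE-PF and 5.44, 5.03, 6.98 and 4.78 in ND-RHL. AE-PF lay below saline without passing the test (log2 -0.24, limma adjusted p = 0.0763), though it passed without ND-RHL library 3 (limma adjusted p = 0.0321), which enters through the shared spread. ND-RHL against AE-PF did not pass either (log2 0.27, limma adjusted p = 0.0648), but did without AE-PF library 3 or ND-RHL library 4 (limma adjusted p = 0.0493 and 0.0381). Tnfsf12 lies wholly within Tnfsfm13 on the same strand and overlaps the antisense gene Tnfsf13os, so its reads could be split. Fibroblast and myofibroblast markers rose as well in AE-PF, 5 of 7, with sums of 304 to 356 in saline, 905 to 1550 in AE-PF and 335 to 455 in ND-RHL, and their part in the RANK and TWEAK values was not tested.

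Among genes of T cell costimulation, 5 of 10 tested rose in AE-PF and 2 fell, where 26.4% and 30.2% of all genes did. Tnfsf18 encodes the ligand of GITR, a receptor on T cells, and had the largest change of all members. It was at 0.0447, 0.0784, 0.0720 and 0.0296 FPKM in saline, 5.26, 5.28, 2.80 and 4.73 in AE-PF and 0.0798, 0.180, 0.0499 and 0.139 in ND-RHL. These values rest on 2, 3, 3 and 1 fragments in saline, 185, 197, 98 and 177 in AE-PF and 3, 6, 2 and 5 in ND-RHL, so that AE-PF alone held more than a trace. Scaled to the library totals, the fragments of AE-PF were 79.9 times those of saline (95% interval 41.8 to 175, counting error only). On the log2(FPKM + 1) scale the rise was 2.36 ± 0.14 SE and the fall with ND-RHL 2.28 ± 0.14 SE. Tnfsf18 passed the filter only through its AE-PF libraries, so both calls were fixed in advance and no p-value is given. The receptor gene Tnfrsf18 moved far less, from 1.84 ± 0.275 in saline to 2.53 ± 0.406 in AE-PF and 2.49 ± 0.304 in ND-RHL. Its AE-PF call (1.24-fold, limma adjusted p = 0.0242) was lost when AE-PF library 1, 3 or 4 or saline library 3 or 4 was left out (limma adjusted p from 0.0507 to 0.0707), and the antisense gene Gm16008 covers it.

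Tnfrsf9 encodes CD137, a receptor induced on activated T cells and on other activated cells. It was at 0.492, 0.496, 0.601 and 0.359 FPKM in saline, 5.29, 5.23, 4.43 and 5.03 in AE-PF and 1.35, 2.30, 0.852 and 2.2 in ND-RHL. The 3 groups were ordered without overlap, with ND-RHL in between. It rose 4.03-fold (log2 2.01 ± 0.16 SE, limma adjusted p = 3.88e-06), fell 2.30-fold (limma adjusted p = 0.000246) and stayed 1.75-fold above saline (limma adjusted p = 0.00571). Pooled Tnfrsf9 fragments, scaled to the library totals, were 10.1 times saline in AE-PF and 0.327 times AE-PF in ND-RHL. Its ligand gene Tnfsf9 was level between saline and AE-PF but lower with ND-RHL: 3.04, 2.97, 3.61 and 3.22 in saline, 2.69, 3.26, 3.71 and 3.34 in AE-PF and 1.58, 2.54, 2.48 and 2.18 in ND-RHL. ND-RHL lay below both groups, by 1.34-fold under AE-PF (limma adjusted p = 0.0105) and 1.33-fold under saline (limma adjusted p = 0.0225). Without saline library 3 the latter did not pass (limma adjusted p = 0.0613). Camta1, on the opposite strand, spans most of Tnfrsf9, so reads of the 2 genes could be mixed.

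Tnfrsf4 and Tnfsf8 rose too. Tnfrsf4, the costimulatory receptor OX40, was at 1.32, 1.27, 0.727 and 1.34 FPKM in saline, 3.44, 2.55, 6.15 and 4.94 in AE-PF and 1.57, 2.22, 1.89 and 4.67 in ND-RHL. Saline lay below both challenged groups, and ND-RHL library 4 lay within AE-PF. The rise was 2.37-fold (limma adjusted p = 0.0019). ND-RHL against AE-PF did not pass (log2 -0.58, limma adjusted p = 0.0988). It passed without ND-RHL library 4 (log2 -0.82, limma adjusted p = 0.0123), without AE-PF library 2 (log2 -0.75, limma adjusted p = 0.0434), without these 2 together (log2 -0.99, limma adjusted p = 0.00249) and without AE-PF libraries 1 and 2 (log2 -0.93, limma adjusted p = 0.0367). Tnfsf8, the ligand of CD30, was at 0.606, 0.539, 0.560 and 0.530 in saline, 2.33, 1.85, 3.03 and 2.44 in AE-PF and 1.10, 1.27, 1.02 and 2.04 in ND-RHL. It rose 2.17-fold (limma adjusted p = 4.56e-05), fell 1.46-fold (limma adjusted p = 0.00816) and remained 1.49-fold above saline (limma adjusted p = 0.0126), with ND-RHL library 4 within the AE-PF range. Pooled Tnfsf8 fragments, scaled to the library totals, were 4.28 times saline in AE-PF and 0.56 times AE-PF in ND-RHL. Neighbouring Tnfsf15, which encodes TL1A, was at 0.483, 0.546, 0.689 and 0.472 in saline, 0.554, 0.294, 1.11 and 1.24 in AE-PF and 1.33, 1.49, 1.36 and 0.937 in ND-RHL. ND-RHL lay above saline (1.47-fold, limma adjusted p = 0.0329), a call lost with a replicate block over all 12 libraries (limma adjusted p = 0.056) and when any of 6 single libraries of these 2 groups was left out (limma adjusted p from 0.0635 to 0.0813). AE-PF against saline did not pass (log2 0.18, limma adjusted p = 0.357), but Tnfsf15 was higher without AE-PF libraries 1 and 2 (log2 0.49, limma adjusted p = 0.00837) and with ND-RHL library 4 and AE-PF library 2 left out (log2 0.33, limma adjusted p = 0.0476). ND-RHL against AE-PF passed only without AE-PF library 4 (log2 0.49, limma adjusted p = 0.0316).

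The TL1A receptor Tnfrsf25, also called death receptor 3 and found mainly on lymphocytes, fell in both challenged groups. It was at 7.28, 8.32, 7.43 and 7.98 FPKM in saline, 1.42, 1.43, 3.87 and 4.42 in AE-PF and 3.16, 4.24, 4.30 and 4.54 in ND-RHL. Saline stood clear above the rest, and AE-PF libraries 1 and 2 were the lowest. The fall was 2.48-fold in AE-PF (log2 -1.31 ± 0.24 SE, limma adjusted p = 0.000874) and 1.74-fold in ND-RHL against saline (limma adjusted p = 0.0381), the latter lost when any single library of these 2 groups was left out (limma adjusted p from 0.0557 to 0.0927). ND-RHL was 1.43-fold above AE-PF without passing (limma adjusted p = 0.113). That difference rested on which AE-PF libraries were kept: its log2 value was 0.51 with all, 0.72 without library 4 (limma adjusted p = 0.0239), 1.05 without libraries 3 and 4 (limma adjusted p = 0.000121) and -0.03 without libraries 1 and 2 (limma adjusted p = 0.876). The fall from saline passed in each alternative, at log2 -0.77 without libraries 1 and 2 and -1.85 without libraries 3 and 4.

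Cd27, a costimulatory receptor of T and B cells, was higher in ND-RHL than in either other group. It was at 1.67, 1.95, 1.70 and 1.5 FPKM in saline, 1.26, 1.12, 2.87 and 2.21 in AE-PF and 3.14, 3.54, 3.12 and 5.06 in ND-RHL. Every ND-RHL library lay above the rest, 1.68-fold over AE-PF (limma adjusted p = 0.00882) and 1.72-fold over saline (limma adjusted p = 0.0139). Without AE-PF libraries 1 and 2 the difference from AE-PF was 0.40 on the log2 scale (limma adjusted p = 0.0866). Summed T cell markers were 25.7 to 29.8 in saline, 15.6 to 55.5 in AE-PF and 52.9 to 102 in ND-RHL, with 1 of 12 higher in AE-PF than in saline, 4 higher in ND-RHL than in AE-PF and 7 higher in ND-RHL than in saline. Regulatory T cell markers summed to 2.85 to 3.58 in saline, 4.77 to 11.7 in AE-PF and 4.16 to 8.13 in ND-RHL. Of 4 tested, 2 were higher and 1 lower in AE-PF than in saline. The part of either list in these costimulatory genes was not tested. Cd27 shares its whole span with Vamp1 on the opposite strand.

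Cd40, the receptor through which T cells license B cells and dendritic cells, changed little. It was at 5.83, 6.78, 6.13 and 5.26 FPKM in saline, 4.92, 3.62, 5.50 and 5.39 in AE-PF and 5.68, 6.03, 6.16 and 6.28 in ND-RHL. Saline and AE-PF overlapped, and the fall of 1.20-fold (limma adjusted p = 0.0465) was lost when any single library was left out except saline library 4 and AE-PF libraries 3 and 4 (limma adjusted p from 0.054 to 0.128), and without AE-PF libraries 1 and 2 (limma adjusted p = 0.269). ND-RHL lay above AE-PF without passing (limma adjusted p = 0.0508), and passed without AE-PF library 3 or 4 (limma adjusted p = 0.0329 and 0.0402). Its ligand gene Cd40lg, a mark of helper T cells, was too low to test, at 0.443, 0.691, 0.635 and 0.440 in saline, 0.141, 0.133, 0.993 and 0.751 in AE-PF and 0.835, 1.04, 0.825 and 1.79 in ND-RHL. Within AE-PF, libraries 1 and 2 were the lowest of all 12, and libraries 3 and 4 lay above all saline libraries.

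**Figure D4:**
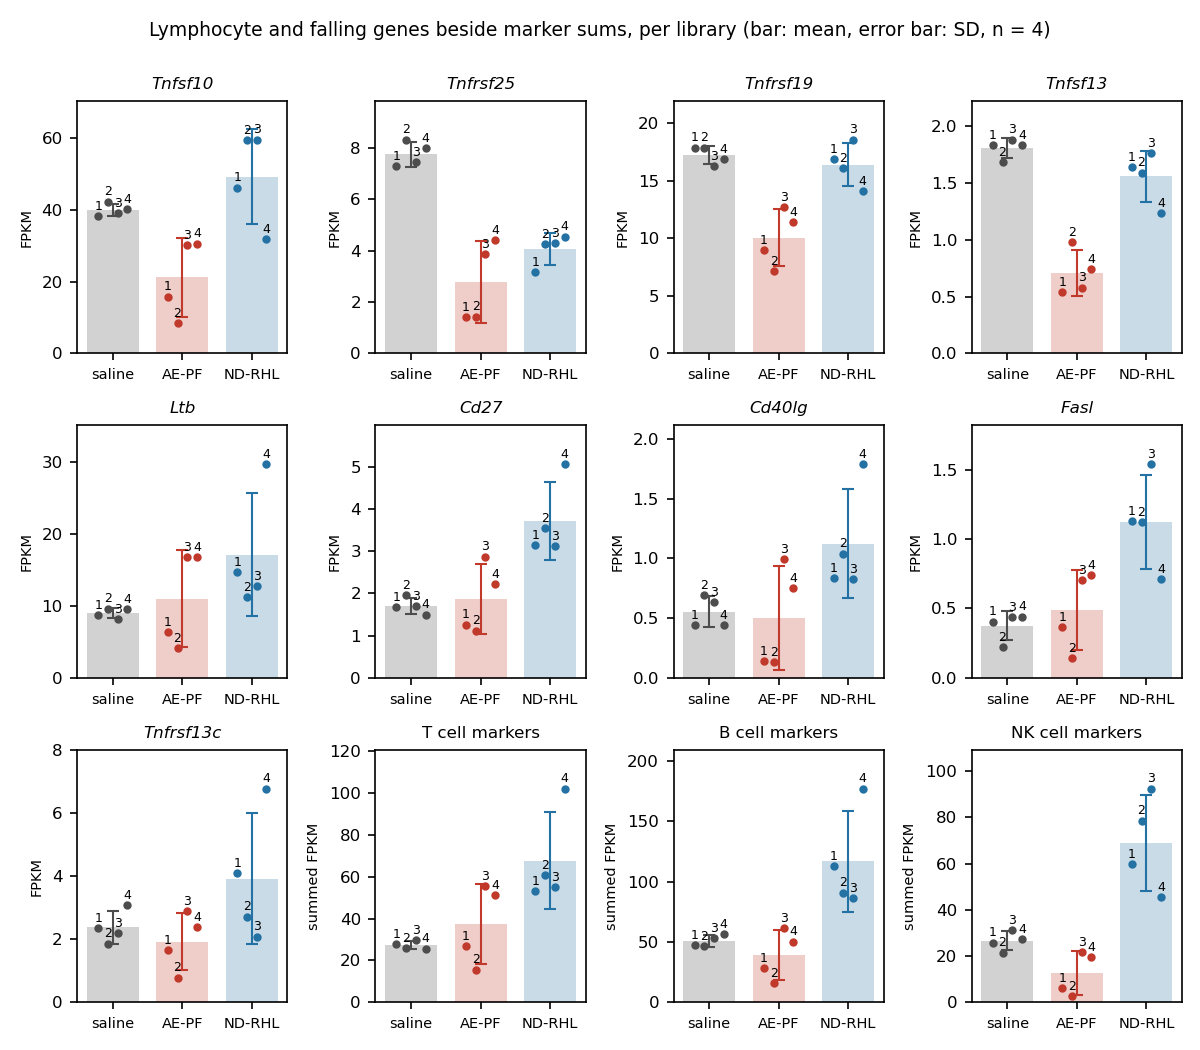
FPKM per library of 9 members that fell in AE-PF or belong to lymphocytes, beside the summed FPKM of T cell, B cell and natural killer (NK) cell markers; bars are means, error bars SD (n = 4) and numbers the library. AE-PF libraries 1 and 2 lie below 3 and 4 in every panel except that of Tnfsf13, and ND-RHL library 4 is the highest of all 12 for Ltb, Cd27, Cd40lg and Tnfrsf13c.

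Of the B cell survival genes, the receptor TACI rose and the ligand APRIL fell in AE-PF. TACI is encoded by Tnfrsf13b and was at 3.86, 4.59, 4.25 and 4.66 FPKM in saline, 9.34, 7.47, 8.71 and 8.32 in AE-PF and 9.57, 8.19, 5.96 and 9.93 in ND-RHL. Both challenged groups lay above saline and overlapped each other, 1.77-fold higher in AE-PF (limma adjusted p = 0.000247) and 1.74-fold in ND-RHL (limma adjusted p = 0.00192). It was the member that rose and was not lower with ND-RHL and stayed above saline (log2 -0.03 for ND-RHL against AE-PF, 95% interval -0.30 to 0.25). APRIL, encoded by Tnfsf13, was at 1.83, 1.68, 1.88 and 1.83 in saline, 0.538, 0.98, 0.578 and 0.743 in AE-PF and 1.64, 1.59, 1.76 and 1.23 in ND-RHL. AE-PF lay below both, by 1.65-fold under saline (limma adjusted p = 8.96e-05) and 1.5-fold under ND-RHL (limma adjusted p = 0.000845). Tnfsf13 overlaps Tnfsfm13 and the antisense gene Tnfsf13os, so its reads could be split between them.

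BAFF and the BAFF receptor gave no call. Tnfsf13b, the BAFF gene, was at 3.95, 4.46, 4.79 and 4.08 FPKM in saline, 4.90, 2.79, 4.18 and 4.07 in AE-PF and 4.33, 4.78, 5.27 and 3.77 in ND-RHL, and the groups overlapped. Tnfrsf13c, the BAFF receptor of mature B cells, was at 2.37, 1.87, 2.2 and 3.08 in saline, 1.66, 0.784, 2.89 and 2.40 in AE-PF and 4.10, 2.72, 2.09 and 6.79 in ND-RHL. It ran widest in ND-RHL, where library 4 was highest, and passed in no comparison with all libraries (log2 0.72, limma adjusted p = 0.0702 against AE-PF). Against AE-PF it passed without AE-PF library 3 (log2 0.87, limma adjusted p = 0.0431) or ND-RHL library 3 (log2 0.91, limma adjusted p = 0.0351). The BCMA gene Tnfrsf17, a mark of plasma cells, was below the limit for testing, at 0.0566, 0.0662, 0.122 and 0.225 in saline, 0.649, 0.340, 0.363 and 0.339 in AE-PF and 0.809, 0.608, 0.569 and 0.705 in ND-RHL. Both challenged groups lay above saline. B cell markers such as Ms4a1 summed to 46.3 to 56.6 in saline, 15.7 to 61.7 in AE-PF and 86.0 to 177 in ND-RHL, with 9 of 9 higher in ND-RHL than in AE-PF. Plasma cell markers summed to 116 to 123, 209 to 1730 and 165 to 421. Of 8 tested, 5 were higher and 1 lower in AE-PF than in saline. Iglv1 and Ighg2b gave 761 and 600 of the 1730 in AE-PF library 1. Mzb1 went the other way, at 0.912 to 1.35 in saline and 0.0455 to 0.532 in AE-PF. The part of either list in these genes was not tested.

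In the lymphotoxin axis 4 of 5 genes were tested: Ltbr rose and Tnfsf14 fell in AE-PF, and Ltb and Tnfrsf14 did not pass. Ltbr, which organises lymphoid tissue when bound by the lymphotoxins, was at 38.7, 38.5, 37.5 and 37.4 FPKM in saline, 49.5, 47.1, 42.9 and 44.4 in AE-PF and 33.3, 35.8, 36.0 and 29.9 in ND-RHL. The groups were ordered without overlap, with AE-PF above saline by 1.20-fold (limma adjusted p = 0.00431) and ND-RHL below AE-PF by 1.35-fold (limma adjusted p = 0.000448). ND-RHL lay below saline by 1.13-fold without passing (limma adjusted p = 0.0793). Ltb, made by lymphocytes, was at 8.68, 9.61, 8.18 and 9.56 in saline, 6.36, 4.09, 16.8 and 16.8 in AE-PF and 14.7, 11.2, 12.7 and 29.7 in ND-RHL. Within AE-PF, libraries 1 and 2 were below all saline libraries and 3 and 4 above them. The log2 difference was 0.06 (limma adjusted p = 0.902), and without libraries 1 and 2 it was 0.84 (limma adjusted p = 0.0444). ND-RHL lay above saline without passing (log2 0.75, limma adjusted p = 0.204, and 0.0442 without AE-PF libraries 1 and 2).

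Lta was low throughout, at 0.501, 0.273, 0.179 and 0.707 FPKM in saline, 0.382, 0.6, 0.940 and 0.799 in AE-PF and 0.755, 0.313, 0.224 and 1.29 in ND-RHL, and all groups overlapped. It lies with Ltb and Tnf in a cluster of 10.9 kb on chromosome 17, in which Tnf alone passed in AE-PF, Ltb did not and Lta was not tested. Tnfsf14, encoding LIGHT, fell from 2.32 ± 0.447 to 1.55 ± 0.307 (1.3-fold, limma adjusted p = 0.0107) and was at 2.02 ± 0.0981 in ND-RHL, above AE-PF in the test only without AE-PF library 2 (log2 0.32, limma adjusted p = 0.0351). Its receptor gene Tnfrsf14 was at 8.58 ± 0.729, 8.73 ± 2.90 and 9.49 ± 0.489. In AE-PF this gene ran from 5.16 to 11.2. Its log2 difference from saline was -0.03 with all libraries, 0.34 without AE-PF libraries 1 and 2 (limma adjusted p = 0.00473) and -0.39 without libraries 3 and 4 (limma adjusted p = 0.0215).

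Tnfrsf19, a receptor of epithelial and mesenchymal progenitors also called TROY, fell in AE-PF and was back among the saline values in ND-RHL. It was at 17.9, 17.9, 16.3 and 16.9 FPKM in saline, 8.96, 7.16, 12.7 and 11.4 in AE-PF and 16.9, 16.1, 18.6 and 14.1 in ND-RHL. AE-PF lay below both other groups, by 1.68-fold under saline (log2 -0.75 ± 0.14 SE, limma adjusted p = 0.000879) and 1.60-fold under ND-RHL (limma adjusted p = 0.00303). The gene overlaps Gm41168 on the opposite strand. Endothelial markers were also lower in AE-PF, 6 of 8, with sums of 853 to 972 in saline, 391 to 589 in AE-PF and 688 to 975 in ND-RHL. Their part, and that of the alveolar type 2 markers given above, was not tested.

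The remaining members were below the limit for testing. Tnfsf4, the ligand of OX40, lies within 110 kb of Tnfsf18 on chromosome 1 and was also highest in AE-PF, at 0.447, 0.240, 0.289 and 0.300 FPKM against 0.0501, 0, 0 and 0 in saline and 0.119, 0.0672, 0.0280 and 0.156 in ND-RHL. These are 14, 8, 9 and 10 fragments in AE-PF against 2, 0, 0 and 0 in saline, a ratio of 22.4 (95% interval 5.83 to 191, counting error only). Tnfrsf8, the receptor CD30, was at 0.178 ± 0.0452, 0.716 ± 0.154 and 0.463 ± 0.210, and its AE-PF libraries lay above saline. Fasl, the death ligand of cytotoxic lymphocytes, was at 0.405, 0.223, 0.435 and 0.442 in saline, 0.364, 0.143, 0.702 and 0.742 in AE-PF and 1.13, 1.12, 1.54 and 0.712 in ND-RHL. ND-RHL lay above saline and overlapped AE-PF. Cd70, the ligand of CD27, was seen in 4 of 12 libraries at 1 fragment each, and Tnfsfm13 was at 0.470 ± 0.128, 0.293 ± 0.0838 and 0.351 ± 0.131. In a fit without any filter, 20 members were higher and 5 lower in AE-PF than in saline, and among the 8 members Tnfsf4, Tnfrsf8 and Tnfrsf17 passed (limma adjusted p = 0.000233, 0.00258 and 0.00906). In that fit Fasl was higher in ND-RHL than in AE-PF (log2 0.52, limma adjusted p = 0.0386) and saline (log2 0.62, limma adjusted p = 0.0364). Tnfrsf17 was higher in ND-RHL than in saline (log2 0.58, limma adjusted p = 0.00278), and Tnfsf4 lower in ND-RHL than AE-PF (log2 -0.27, limma adjusted p = 0.00398).

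ND-RHL against saline asks what differed from unchallenged lung after challenge and treatment, whether or not it had differed in AE-PF. It shares libraries with both comparisons above. Of 34 members, 8 were higher (23.5%), where 13.3% of all genes were, and 3 were lower (8.82%), where 8.65% were. At least 2-fold higher or lower on the log2(FPKM + 1) scale were 0 members, against 1.15% and 0.429% of all genes. That scale understates low genes. Pooled fragments scaled to the library totals were 3.32 times saline for Tnfrsf9, 2.39 for Tnfsf8, 2.32 for Tnfsf15, 2.16 for Cd27 and 2.1 for Tnfrsf26. The other called members were at 1.94 (Tnfrsf13b), 1.58 (Tnfrsf11a), 1.43 (Tnfrsf1b), 0.722 (Tnfrsf22), 0.681 (Tnfsf9) and 0.525 (Tnfrsf25). The groups did not overlap in 14 members (41.2%) and in 29.9% of all genes. The higher members were Tnfrsf9, Tnfrsf13b, Cd27, Tnfsf8, Tnfrsf26, Tnfsf15, Tnfrsf1b and Tnfrsf11a, and the lower ones Tnfrsf25, Tnfsf9 and Tnfrsf22. Cd27, Tnfsf15 and Tnfsf9 had not passed in AE-PF against saline with all libraries. Of the 18 members higher in AE-PF, 6 were still higher than saline in ND-RHL, and 9 were lower than AE-PF with no detectable difference from saline. The matching shares over all genes were not computed for these counts either. A missed threshold does not show that these 9 were equal to saline. In an alternative fit, replicate numbers were treated as if they paired saline and ND-RHL libraries, which neither the labels nor the data establish. With that block, on these 8 libraries alone, 9 members were higher and 3 lower. Tnfrsf18 was the one gained (log2 0.29, limma adjusted p = 0.0332 against 0.0618 without it). Tnfrsf18 also passed without AE-PF library 2 (limma adjusted p = 0.0355), ND-RHL library 4 (0.0465), both of these (0.0206) or AE-PF libraries 1 and 2 (0.0385).

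Genes that act with the family were read from 7 lists. Over all genes tested, 26.4% rose and 30.2% fell in AE-PF, and 24.3% were higher and 17.4% lower with ND-RHL. Of the receptor-proximal adaptors and complexes, 10 of 22 tested rose in AE-PF and 4 fell, among them Ripk1, a kinase at the branch between survival and death, which went from 6.95 ± 0.242 to 9.52 ± 0.212 FPKM (limma adjusted p = 2.71e-05) and was at 7.37 ± 0.374 in ND-RHL. Birc3, an inhibitor of apoptosis that ubiquitinates RIPK1, rose from 10.9 ± 0.342 to 15.8 ± 0.670 (limma adjusted p = 5.55e-05), and Otulin, which removes linear ubiquitin, from 12.8 ± 0.315 to 18.3 ± 0.653 (limma adjusted p = 1.35e-05). In ND-RHL against AE-PF, 6 of these genes were higher and 5 lower, not far from the shares of all genes. Of the death execution genes, 8 of 13 rose and 3 fell in AE-PF, and 7 were lower and 1 higher with ND-RHL. Mlkl, which perforates the membrane in necroptosis, went from 3.28 ± 0.405 in saline to 8.37 ± 0.851 in AE-PF (limma adjusted p = 4.72e-06) and was at 5.90 ± 0.714 in ND-RHL (limma adjusted p = 0.0035 against AE-PF). The median log2 difference in AE-PF was 0.15 over the adaptors and 0.49 over the death execution genes, and with ND-RHL -0.01 and -0.19, beside -0.03 and 0.06 over all genes tested.

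Of the NF-kB kinases and subunits, 6 of 18 were higher and 1 lower in AE-PF, where 26.4% and 30.2% of all genes were, and 1 was higher and 3 lower with ND-RHL, where 24.3% and 17.4% were. Rela, the main activating subunit, was the lower one, from 37.0 ± 0.736 to 30.2 ± 1.3 FPKM (limma adjusted p = 0.00202). Nfkbie, an inhibitor that NF-kB itself induces, rose from 4.50 ± 0.175 to 9.43 ± 2.16 (limma adjusted p = 0.000627). Of the shedding genes, 4 of 9 rose and 1 fell, and 5 were lower with ND-RHL. Adam17, the protease that frees TNF and cuts its receptors, rose from 15.7 ± 0.526 to 20 ± 2.29 (limma adjusted p = 0.00343), and Furin, a protease which processes several ligands of the family, was at 15.8 ± 0.294, 27.3 ± 2.75 and 15.1 ± 1.23 in saline, AE-PF and ND-RHL. The median log2 differences of the NF-kB and shedding lists were 0.14 and 0.06 in AE-PF against saline, and -0.07 and -0.22 in ND-RHL against AE-PF.

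Of genes that TNF is known to induce, 12 of 18 tested rose and 2 fell in AE-PF, and 7 were lower and 1 higher with ND-RHL. Over all genes tested, 26.4% rose and 30.2% fell in AE-PF, and 17.4% were lower and 24.3% higher with ND-RHL. Vcam1, an adhesion molecule of activated endothelium, rose from 10.2 ± 0.432 to 15.3 ± 2.24 FPKM (limma adjusted p = 0.000267). Tnfaip2 was lower with ND-RHL, at 11.4 ± 1.57 against 18.7 ± 1.22 (limma adjusted p = 0.00066). Many of these genes are also induced by LPS and by interleukin 1 without TNF. Of 4 lymphoid chemokine and stroma genes tested, 2 rose: Cxcl13, the B cell attractant that lymphotoxin induces, from 3.54 ± 0.624 to 68.1 ± 40.4 (limma adjusted p = 7.36e-05), and Ccl21a from 60.7 ± 8.16 to 125 ± 29.0 (limma adjusted p = 0.00801). Cxcl13 was at 12.7 ± 8.57 in ND-RHL, 5.32-fold under AE-PF (limma adjusted p = 0.00268). Of 4 relatives outside the naming rule, Eda2r rose from 0.703 ± 0.0693 to 3.80 ± 0.507 (limma adjusted p = 2.93e-06) and Relt from 2.21 ± 0.269 to 4.71 ± 0.735 (limma adjusted p = 7.31e-05), and both were lower with ND-RHL. Medians were 0.48, 0.52 and 0.45 on the log2 scale in AE-PF against saline for the TNF-induced, lymphoid and related genes, and -0.29, -0.07 and -0.25 in ND-RHL against AE-PF.

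Within AE-PF many members differed between the 2 pairs of libraries described above. Libraries 1 and 2 were both below 3 and 4 in 19 of 34 members (55.9%), against 41.2% of all genes tested, and both above them in 8 (23.5%), against 21.1%. The 19 held genes that rose in AE-PF (Tnf, Tnfrsf1b, Tnfrsf11b, Tnfrsf18, Tnfrsf4 and Tnfsf8), genes that fell (Cd40, Tnfrsf19, Tnfrsf22, Tnfrsf25 and Tnfsf10) and 8 that did not pass, among them Ltb and Cd27. The 8 with the opposite pattern, a share near that of all genes, were Fas, Ltbr, Tnfrsf1a, Tnfrsf11a, Tnfrsf12a, Tnfrsf23, Tnfrsf9 and Tnfsf18. Without libraries 1 and 2, 18 members were higher and 4 lower in AE-PF than in saline. Without libraries 3 and 4, 15 were higher and 9 lower. Over all genes, 51.7% and 42.1% of calls were higher in these fits, against 46.7% with all libraries. Tnfsf18 and Tnfsf11 fell below the filter in both fits. Without libraries 1 and 2 the call of Fas was also lost, while Ltb, Tnfrsf14 and Tnfsf15 passed as higher.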

How the data were processed

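Polyadenylated lung RNA of 12 libraries (4 per group, grouped and numbered by sample title) was sequenced. The authors deposited FPKM values for 35599 genes. Per the submitters' processing notes, the tools included STAR 2.7.9a, Trim Galore 0.6.6, Subread 2.0.1 with featureCounts, DESeq2 1.30.1 and FastQC, and the build was GRCm38 (mm10); strand and multi-mapping settings are not given in the sources used here. Whole fragments and library totals were recovered from the deposited FPKM values of all 35599 genes (tolerance 1e-05 fragments). They serve for depth, counts of fragments and limma-voom as an alternative. Intervals of fragment ratios cover counting error only.

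limma 3.58.1 (R 4.3.3) was run on log2(FPKM + 1) with a variance trend, all 12 libraries, 9 residual degrees of freedom and two-sided tests, over the 15164 genes that reached 1 FPKM in 4 or more libraries. Adjusted p-values are Benjamini-Hochberg over all of them, with a threshold of 0.05; the script was tested on simulated data. The members, lists and tests were chosen with earlier results of these data known. Library values were given for the 8 members with the largest called change in AE-PF against saline and in ND-RHL against AE-PF, those called in ND-RHL against saline, and 23 fixed members; of each gene list, up to 3 with the smallest p. Coordinates and overlaps are from GENCODE M21 (GRCm38), matched by gene identifier, and promoters from RefSeq (GRCm38.p6). Alternatives were the pseudocount, the filter, the scaling, the test, the groups fitted, a replicate block and left-out libraries.

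Replicate numbers were checked by correlating deviations from the group means. Same-numbered saline and ND-RHL libraries correlated at 0.40, 0.19, 0.11 and 0.17. Differently numbered libraries were not set beside them, so these values cannot show that the numbers pair libraries. The labels name no pairing, and the block served only as an alternative fit. Correlations ran from -0.18 to 0.07 for AE-PF with saline and from -0.39 to 0.34 for ND-RHL with AE-PF. No 2 libraries held identical values.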

Additional observations from a re-analysis of the deposited data

Results flagged for a closer look

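In 8 of 126 groups of 4 libraries, the highest or lowest library stood apart from the other 3 by more of the group's range than Dixon's 95% limit, which chance passes in about 1 in 20 groups. Tnf was lowest in AE-PF library 2, at 1.79 FPKM. Tnfrsf17 was highest in AE-PF library 1, at 0.649. In saline, library 3 was high for Tnfrsf26 (0.94) and low for Tnfrsf4 (0.727), and library 2 was low for Fasl (0.223). Cd70 was seen only in saline library 2 (0.0641) and AE-PF library 3 (0.0702) of their groups, at 1 fragment each, and Tnfsf4 only in saline library 1 of its group (0.0501).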

How the results depend on the processing

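Of 25 calls in AE-PF against saline, 20 were kept in every alternative that tested the gene. The same held for 13 of 19 in ND-RHL against AE-PF and 6 of 11 in ND-RHL against saline. The kept counts of both comparisons with AE-PF include Tnfsf18, whose calls were fixed in advance. Tnfsf18 was not tested when any AE-PF library was left out, so those alternatives could not end its calls. The calls lost in some alternative were Cd40, Fas, Tnfrsf18, Tnfrsf22 and Tnfsf10, then Cd27, Fas, Tnfrsf26, Tnfsf10, Tnfsf8 and Tnfsf9, then Tnfrsf1b, Tnfrsf22, Tnfrsf25, Tnfsf15 and Tnfsf9. With a minimum FPKM of 5, 15 members were tested, giving 8 higher and 4 lower in AE-PF against saline, 2 higher and 7 lower in ND-RHL against AE-PF, and 2 higher and 1 lower in ND-RHL against saline. With no filter limma called 0 of 42 members lower in ND-RHL against saline, where 4 had an unadjusted p under 0.05 and limma-voom called 3 of 34. Leaving out single libraries gave 16 to 18 higher and 4 to 7 lower in AE-PF against saline (4 without saline library 2 or AE-PF library 1), 4 to 7 higher and 13 to 18 lower in ND-RHL against AE-PF (7 higher without AE-PF library 3 or 4), and 6 to 9 higher and 1 to 3 lower in ND-RHL against saline (1 without saline library 3). Chosen after the data were seen, leaving out AE-PF libraries 1 and 2 gave 4 lower in AE-PF against saline and 2 higher in ND-RHL against AE-PF, and leaving out libraries 3 and 4 gave 10 higher in the latter, adding Cd40, Ltb, Tnfrsf13c, Tnfrsf14, Tnfrsf25 and Tnfsf12. Over all genes, 51.1% of calls in ND-RHL against AE-PF were higher without AE-PF libraries 1 and 2. The share was 65% without libraries 3 and 4 and 58.2% with all. The direction of Tnfrsf14 in AE-PF turned from -0.03 to 0.34 without libraries 1 and 2. The cause of these shifts was not tested.

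With the replicate block over all 12 libraries, 18 members were higher and 6 lower in AE-PF against saline, 6 and 16 in ND-RHL against AE-PF, and 7 and 3 in ND-RHL against saline. It ended the AE-PF calls of Cd40 and Tnfrsf22 and the call of Tnfsf15 against saline. It brought in Tnfsf12 in AE-PF against saline (limma adjusted p = 0.0232), and Tnfsf12, Tnfrsf10b and Tnfrsf13c in ND-RHL against AE-PF (limma adjusted p = 0.0214, 0.0469 and 0.0381). Quantile normalisation moved the share of all calls that were higher to 46.4% in ND-RHL against AE-PF and 43.5% (from 60.5%) in ND-RHL against saline, with 4 and 7 members higher and 17 and 3 lower. Depth limits the 8 members below the filter, several of which rest on a few fragments.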
